A study of Drosophila melanogaster with 6 samples.

Results

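Oxidative phosphorylation is carried out by the proton-pumping respiratory chain and the ATP synthase of the inner mitochondrial membrane, and 76 of the 11982 genes with a single-symbol probe set were taken to stand for it. They were chosen by name alone. A gene was included where its current symbol began with ND-, Sdh, UQCR, COX or ATPsyn, or was RFeSP, Cyt-c1 or levy. Complex I supplied 32 of the genes, complex II 7, complex III 8, complex IV 15 and complex V 14. Of the 76, 55 encode subunits or assembly factors and 21 are paralogues, whose symbols end in L or in L with a number. They have 85 probe sets, and each gene was represented by the one with the highest mean over all 6 arrays. A further 18 reference symbols matching the same names, among them SdhA, UQCR-C1, UQCR-C2 and the mitochondrially encoded COX1, COX2 and COX3, had no probe set of their own and were not analysed here.

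The study used Drosophila S2 cells, an embryonic line with haemocyte properties. All cells were transfected, and total RNA was taken at 48 h. A control transfection, described for the series as empty vector, has 2 arrays. The others received pAc-Clk, a plasmid for the clock transcription factor Clk, at 10 ng (2 arrays) or at 30 ng or 100 ng (a single array for each). Vectors of the pAc type carry the constitutive Actin 5C promoter. The labels do not say whether the arrays of a group came from separate cultures, so p-values rest on a spread between arrays that may be only technical. Transfected and untransfected cells were not separated, so a smaller number of cells expressing a gene and less RNA per cell cannot be told apart. All 11 haemocyte markers listed were above the Tag control probe sets, which have no target in fly RNA, on all 6 arrays. The same held for 1 of 5 testis, 1 of 4 muscle, 2 of 3 neuronal, 1 of 3 germline and 1 of 3 fat body markers.

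Complex I accepts electrons from NADH and complex II from succinate, and both hand them to ubiquinone. Complex III passes them through its Rieske iron-sulphur protein and cytochrome c1 to cytochrome c, and complex IV delivers them to oxygen. Complexes I, III and IV pump protons, and the return flow turns the rotor of ATP synthase, complex V. Most subunits are encoded in the nucleus, are made in the cytosol and are imported, and the insect genome also carries paralogues of many subunit genes that in Drosophila are expressed mainly in the testis.

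Values below are on a log2 scale, taken as the natural log of the deposited intensities, and a change is the difference from the mean of the controls. The 30 ng and 100 ng arrays differed from the others in the signal along the control transcripts. For the 3 control transcripts that the array probes at both ends (those of GAPDH, actin and eIF-4a), the 5' signal minus the 3' signal averaged -0.75 ± 0.0040 (SD, n = 2) in the controls and -0.94 ± 0.43 (SD, n = 2) at 10 ng. It was -9.40 on the 30 ng array and -8.25 on the 100 ng array. The middle minus 3' difference was -0.50 ± 0.081 in the controls and -0.51 ± 0.096 with 10 ng. With 30 ng it was -2.78 and with 100 ng it was -6.60. Low 5' signal therefore coincided with the 2 higher doses, each of which had 1 array. Dose and 5' signal cannot be told apart in these data. The 100 ng array also differed in other control probe sets. For control RNAs added in known relative amounts, the slope of signal on amount was 0.83 there and 0.98 to 1.07 on the other arrays. Its highest Tag control was 3.56, against 2.95 to 3.22 on the others. The part of these differences in the changes below was not tested.

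**Figure D1:**
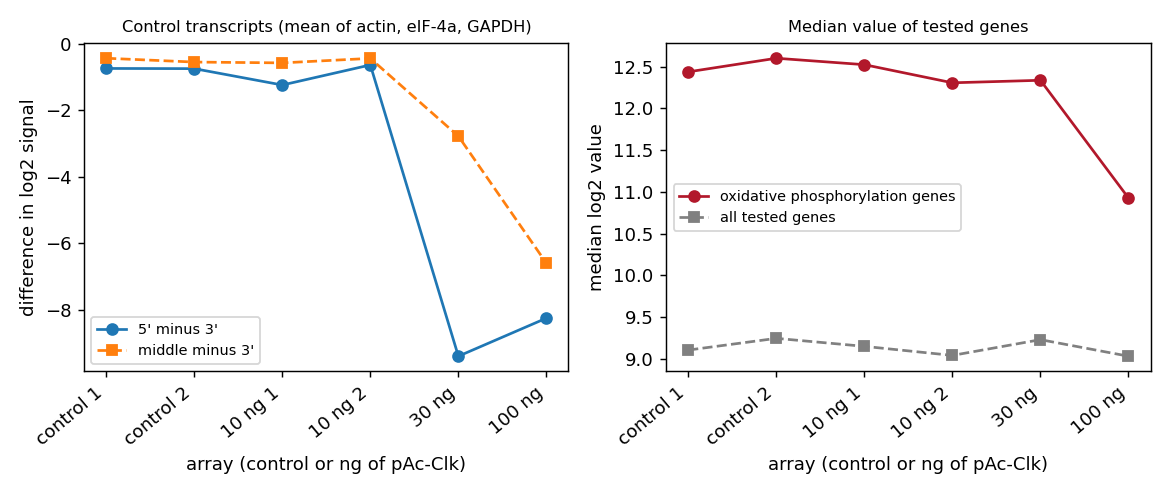
The left panel plots the mean 5' minus 3' and middle minus 3' difference in log2 signal of the 3 control transcripts on each of the 6 arrays, and the right panel the median log2 value of the 56 tested oxidative phosphorylation genes and of the 6610 genes tested. The 30 ng and 100 ng arrays had 5' differences of -9.40 and -8.25, and the median of the oxidative phosphorylation genes was lowest, at 10.93, on the 100 ng array.

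Oxidative phosphorylation genes were among the brighter genes of these cells. Their median over the 56 genes that passed the filter on low values (4 or more on at least 2 arrays) was 12.44 and 12.60 on the control arrays, where the median of all 6610 tested genes was 9.11 and 9.25. It was 12.52 and 12.31 with 10 ng, 12.34 with 30 ng and 10.93 with 100 ng. The median of all tested genes was 9.15, 9.04, 9.23 and 9.03 on the same arrays. The 100 ng array thus had the lowest median of both, well below the other arrays for the oxidative phosphorylation genes and close to them for all genes. By these representative probe sets, the brightest in the controls were ND-MLRQ and ND-ACP for complex I, SdhB and SdhC for complex II, UQCR-6.4 and RFeSP for complex III, COX7B and COX5A for complex IV, and ATPsyngamma and ATPsynF for complex V, where a second probe set of ATPsynbeta was brighter, at 14.97 and 15.03. ND-MLRQ was placed by its prefix, although its mammalian counterpart NDUFA4 has been assigned to complex IV. The 56 tested genes were 26 of complex I, 4 of complex II, 6 of complex III, 8 of complex IV and 12 of complex V.

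The genes that failed the filter were almost all paralogues. Of the 21 paralogues, 19 were not tested, and their values ran from 2.19 to 4.27 over all arrays, with a median of 2.75. The only other untested gene was ND-B8, an accessory subunit of complex I. On all 6 arrays 12 paralogues were at or under the highest Tag control, which was 2.95 to 3.56. These were ND-20L, ND-24L, ND-51L1, ND-51L2, SdhAL, SdhBL, SdhCL, COX4L, COX5BL, COX6CL, ATPsynCF6L and ATPsynGL. Where the partner was also measured, it was above the Tag controls on every array, as for ND-20, ND-51, SdhB and SdhC. Only ATPsynbetaL and ATPsynepsilonL, named after subunits of the catalytic part of ATP synthase, passed the filter among the paralogues. ATPsynbetaL did so only through the 30 ng and 100 ng arrays.

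At 10 ng no oxidative phosphorylation gene was called. By limma with Benjamini-Hochberg adjustment over 8446 probe sets at 0.05, 0 of 56 were higher (0.0605% of all genes tested were) and 0 were lower (0% of all genes). No member had an unadjusted p under 0.05, against 26 higher and 104 lower among all genes, and the smallest adjusted p of a member was 0.9998. Changes ran from -0.25 for ND-MLRQ to 0.09 for ATPsynepsilonL, with a median of -0.08 beside -0.09 for all genes. The 95% intervals of the 56 changes lay between -0.61 and 0.58, so each excluded a doubling or a halving. Both 10 ng arrays were below both controls for 9 genes, where 22.9% of all genes were, and both were above for 0 genes, where 3.57% of all genes were. The 9 were ATPsynC, ATPsyndelta, COX5B, COX7A, COX7B, COX8, ND-B17, ND-MLRQ and ND-SGDH.

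**Figure D2:**
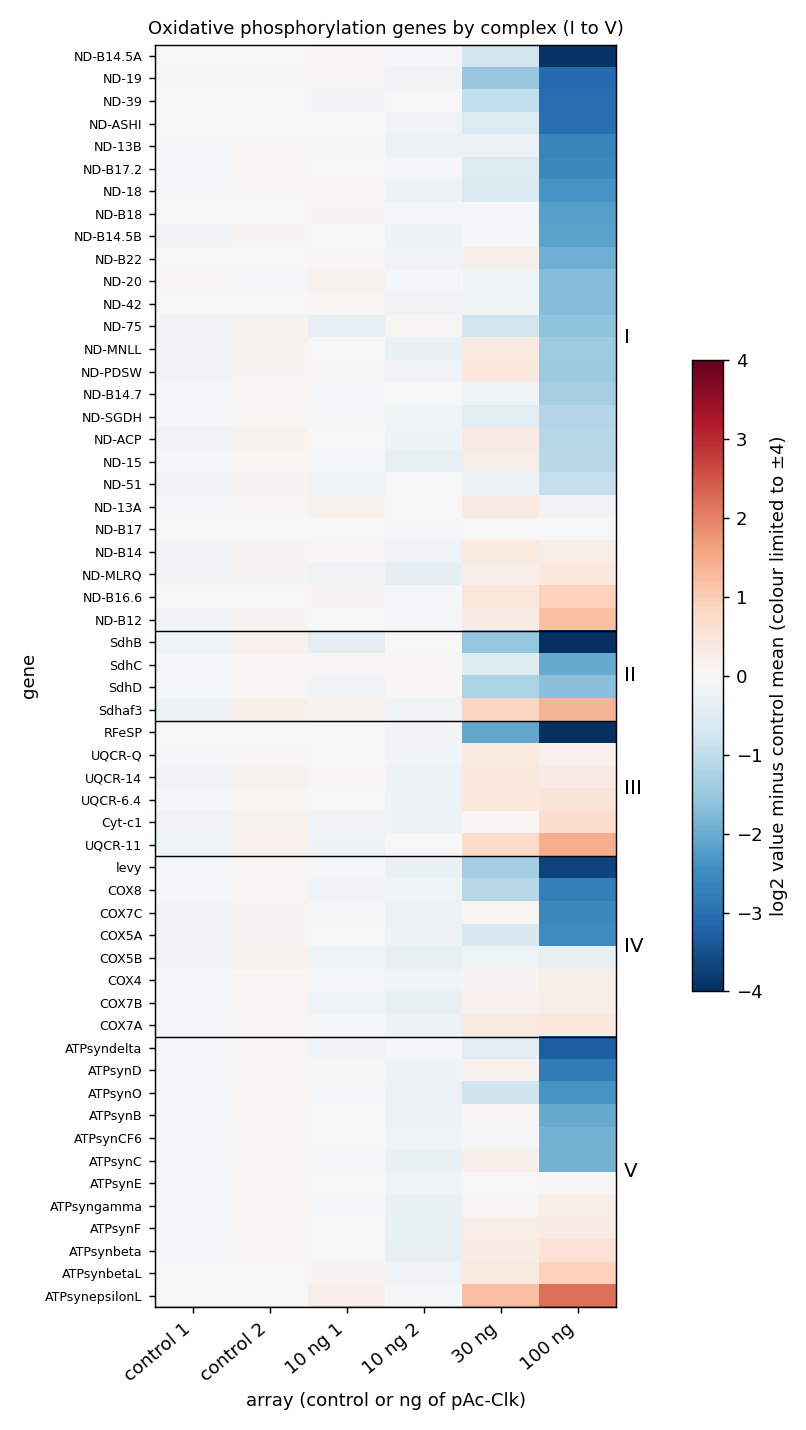
Colour gives the log2 value of each of the 56 tested genes (rows, grouped by complex I to V) on each of the 6 arrays (columns) minus the mean of the 2 control arrays. The control and 10 ng columns stay near 0, the 30 ng column differs for a minority of genes and the 100 ng column carries the largest changes, down to -6.77 for RFeSP.

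At 30 ng, 13 genes fell and 2 rose. The fall of 23.2% of the members stood beside 10.4% of all genes called lower, and the rise of 3.57% beside 6.22% called higher. Of the 51 members with a control mean of 10 or more, 13 fell and 0 rose, where 13.6% and 4.05% of all 2272 such genes did. The genes that fell were ND-19, ND-39, ND-75, ND-ASHI, ND-B14.5A and ND-B17.2 of complex I, SdhB and SdhD of complex II, RFeSP of complex III, COX5A, COX8 and levy of complex IV, and ATPsynO of complex V. The genes that rose were Sdhaf3, an assembly factor of complex II, by 0.82 (SE 0.24, adjusted p = 0.0448) and ATPsynepsilonL by 1.19 (SE 0.27, adjusted p = 0.0157). The median change of the 56 was 0.01, beside 0.15 for all genes. RFeSP had the largest change of the members that fell, -2.08 (SE 0.15, adjusted p = 2.22e-05). The counts depended on the processing: 12 rose and 17 fell after quantile normalization, so that rises made up 41.4% of the calls in place of 13.3%, 0 rose and 6 fell with no filter, and 0 rose and 7 fell with the deposited values at face value. They also depended on single arrays: without control 1, 1 gene rose and 9 fell, and without control 2, 2 rose and 8 fell. COX5A, ND-ASHI and ND-B17.2 lost their call without either one, ND-B14.5A without control 1, and ATPsynO and ND-75 without control 2. Sdhaf3 lost its call without control 1 and without either 10 ng array, and both rises were lost with no filter and at face value.

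At 100 ng, 34 of the 56 genes fell, 10 rose and 12 were not called. That is 60.7% lower and 17.9% higher, where 35.4% of all genes were lower and 34.9% higher. The median change was -1.44, beside 0.05 for all genes. With no filter it was -0.03, over 76 members in place of 56, and with the values at face value it was -0.72 over the 69 that then passed the filter; over the same 56 genes it was -1.44 and -2.08. Falls were more common among bright genes: of the 2272 genes with that control mean, 47.2% were lower and 27.5% higher, with a median of -0.32. Of the 51 members among them, 34 were lower (66.7%) and 5 were higher (9.80%), with a median of -1.67. Another scaling of the arrays left the count of falls at 34 (quantile normalization) or 36 (arrays centred on their medians), but the count of rises was 19 or 5, so that rises made up 35.8% or 12.2% of the calls in place of 22.7%. The median of all genes was 0.05 as deposited, 0.25 after quantile normalization and -0.35 after centring, and the median of the members was lower than it by 1.49 as deposited and by 1.55 after quantile normalization; centring shifts all genes alike and leaves that difference as it was. Leaving out control 1 left 34 falls and 6 rises, without those of ATPsynbeta, COX7A, Cyt-c1 and UQCR-6.4, and leaving out control 2 left 34 falls and 7 rises. Against the 30 ng array, the 100 ng array had 33 members lower (32.6% of all genes were) and 3 higher (22.7% of all genes were). Among the bright genes 33 of 51 members were lower (46% of such genes were) and 1 was higher (15.6% were). The 3 higher in all were ND-B12, Cyt-c1 and ATPsynepsilonL. After quantile normalization 15 were higher, or 31.2% of the calls in place of 8.33%, and after centring 0 were. The call of Cyt-c1 was also lost without control 1, without control 2, with no filter and at face value. With 1 array at each dose, the error in this step is borrowed from the pairs of controls and 10 ng arrays.

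**Figure D3:**
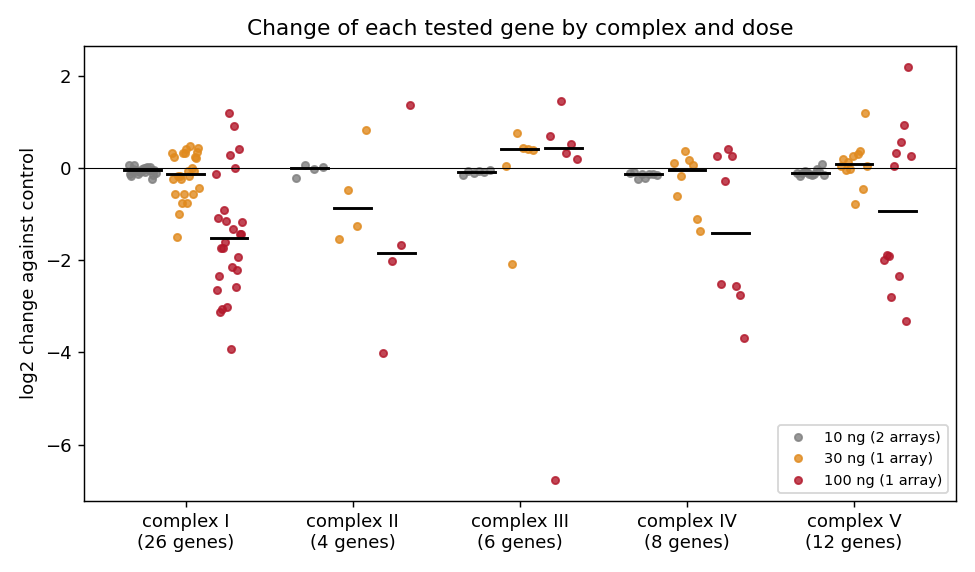
Each point is the log2 change of 1 tested gene against the control mean, placed by complex (I to V, with the number of genes tested) and coloured by dose of pAc-Clk. At 10 ng all points lie between -0.25 and 0.09, and at 100 ng the medians are -1.53, -1.84, 0.42, -1.41 and -0.93 for complexes I to V.

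Complex I had 20 genes lower, 2 higher and 4 not called at 100 ng, with a median of -1.53. That is 76.9% lower and 7.69% higher, where 35.4% of all genes were lower and 34.9% higher. All of these complex I genes but ND-B12 had a control mean of 10 or more. Of all genes with such a mean, 47.2% were lower and 27.5% higher. All 3 core subunits tested, which carry the redox centres, fell. ND-51, the flavin-bearing subunit where NADH is oxidised, changed by -0.91 (SE 0.18, adjusted p = 0.00111), ND-75, which holds several iron-sulphur clusters, by -1.61 (SE 0.22, adjusted p = 1.01e-04) and ND-20, which holds the last cluster before ubiquinone, by -1.73 (SE 0.16, adjusted p = 1.02e-05). Accessory subunits, which surround the core and serve its stability and assembly, had the extremes. ND-B14.5A read 12.12 and 12.11 in the controls, 12.16 and 12.06 with 10 ng, 11.35 with 30 ng and 8.18 with 100 ng, a change of -3.94 (SE 0.16, adjusted p = 3.25e-08). The control and 10 ng arrays overlapped, and the 2 high-dose arrays lay below them. The changes of ND-19 and ND-39 were -3.13 and -3.05. ND-B12 and ND-B16.6, the counterpart of mammalian GRIM-19, rose. ND-B16.6 read 11.56 and 11.56 in the controls, 11.66 and 11.51 with 10 ng, 12.04 with 30 ng and 12.47 with 100 ng, a change of 0.90 (SE 0.16, adjusted p = 5.36e-04). ND-B12 was dim, near 4.65 to 5.07 on the first 5 arrays and 5.95 on the last, a change of 1.19 (SE 0.25, adjusted p = 0.0020). ND-ACP, the mitochondrial acyl carrier protein, fell by 1.15. ND-MLRQ, the brightest, changed by 0.41 (adjusted p = 0.0607) and was not called.

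In complex II the tested catalytic and anchor subunits fell at 100 ng and the assembly factor Sdhaf3 rose. Another assembly factor of this complex, Sirup (Sdhaf4), is not a member and went with the subunits, with a change of -2.14. SdhB, the iron-sulphur subunit, read 11.82 and 12.19 in the controls, 11.60 and 11.98 with 10 ng, 10.47 with 30 ng and 7.99 with 100 ng. The control and 10 ng ranges overlapped, and both high-dose arrays were below them. The change at 100 ng was -4.02 (SE 0.22, adjusted p = 2.16e-07). The membrane anchors SdhC and SdhD fell too, with changes of -2.01 (adjusted p = 3.41e-06) and -1.67 (adjusted p = 2.49e-05). Sdhaf3, which assists maturation of the iron-sulphur subunit, read 8.67 and 9.11 in the controls, 9.04 and 8.75 with 10 ng, 9.70 with 30 ng and 10.24 with 100 ng. It rose by 1.36 (SE 0.24, adjusted p = 6.28e-04). The flavoprotein SdhA had no probe set of its own.

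Complex III was the complex with a positive median at 100 ng, 0.42, and with more genes higher (3) than lower (1); whether it differed from the other complexes was not tested. The shares were 16.7% lower and 50% higher, where 35.4% of all genes were lower and 34.9% higher. Its single fall was the largest among the representative probe sets. RFeSP, the Rieske iron-sulphur protein, read 13.37 and 13.40 in the controls, 13.37 and 13.26 with 10 ng, 11.31 with 30 ng and 6.62 with 100 ng. The first 4 arrays lay close together, far above the last. The change at 100 ng was -6.77 (SE 0.15, adjusted p = 3.01e-09), a 109-fold lower signal. A second probe set of RFeSP read 2.34 and 2.54 in the controls. It was not above the highest Tag control on any of the 6 arrays and was not tested. Cyt-c1, the next carrier in the same complex, read 12.78 and 13.05 in the controls, 12.80 and 12.70 with 10 ng, 12.96 with 30 ng and 13.62 with 100 ng. Cyt-c1 rose by 0.70 (SE 0.17). UQCR-11, an accessory subunit, rose by 1.45 (SE 0.27, adjusted p = 9.17e-04) from 5.99 and 6.31 in the controls to 7.59. UQCR-6.4, another accessory subunit, rose by 0.52 (adjusted p = 0.0193). The rises of Cyt-c1 and UQCR-6.4 were lost without control 1 and on centring, and that of UQCR-6.4 also without control 2 and with no filter.

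In complex IV, whose catalytic core is encoded in the mitochondrial genome, all 8 tested genes were accessory subunits. At 100 ng 4 fell, 1 rose and 3 were not called. That is 50% lower and 12.5% higher. The share lower was near that of all genes with a control mean of 10 or more, of which 47.2% were lower and 27.5% higher. levy, the fly COX6A subunit, read 13.62 and 13.71 in the controls, 13.62 and 13.41 with 10 ng, 12.31 with 30 ng and 9.97 with 100 ng, a change of -3.69 (SE 0.16, adjusted p = 6.69e-08). The other falls were those of COX8, with a change of -2.77 (adjusted p = 2.75e-07), COX7C, with -2.57 (adjusted p = 6.71e-07), and COX5A, with -2.52 (adjusted p = 9.82e-07). COX7C differed from levy at the middle dose. It read 13.82 at 30 ng, inside its control range of 13.65 to 13.85, and 11.18 at 100 ng. COX7A rose by 0.41 (SE 0.16, adjusted p = 0.0390), a call lost without either control array and on centring, and COX7B changed by 0.26 (adjusted p = 0.176).

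Complex V had 6 genes lower, 3 higher and 3 not called at 100 ng. That is 50% lower and 25% higher. These shares include the paralogues ATPsynbetaL and ATPsynepsilonL, which both rose and had control means under 10. Apart from them, only ATPsynbeta was called higher. Of all genes with a control mean of 10 or more, 47.2% were lower and 27.5% higher. The shares of complex V are therefore not like for like with that set. All 4 tested subunits of the peripheral stalk, which holds the catalytic head still, fell, with a median of -2.18. Among them ATPsynD changed by -2.79 (adjusted p = 3.94e-07) and ATPsynO, the counterpart of the oligomycin sensitivity-conferring protein, by -2.35 (adjusted p = 1.19e-06). Of the 3 subunits tested in the membrane sector, ATPsynC, which forms the rotor ring, fell, and the others, ATPsynF included (0.32, adjusted p = 0.139), were not called. In the catalytic head and its shaft the representative probe sets were divided, and the second probe sets of ATPsynbeta and ATPsyngamma both fell with ATPsyndelta, by 8.06 and 4.72. ATPsyndelta, of the central stalk, read 12.90 and 12.99 in the controls, 12.85 and 12.89 with 10 ng, 12.50 with 30 ng and 9.63 with 100 ng, a change of -3.31 (SE 0.15, adjusted p = 7.67e-08). ATPsynbeta, the catalytic subunit, rose by 0.56 (SE 0.18, adjusted p = 0.0159) by its representative probe set, a call lost without either control, with no filter and on centring. ATPsyngamma, the shaft, changed by 0.27 (adjusted p = 0.189) by its representative probe set. The paralogue ATPsynepsilonL read 6.34 and 6.39 in the controls, 6.64 and 6.27 with 10 ng, 7.56 with 30 ng and 8.56 with 100 ng. It was higher on both high-dose arrays than on any other, and rose by 2.20 (SE 0.27, adjusted p = 5.80e-05). ATPsynbetaL was dim, at 3.66 in both controls, 3.76 and 3.52 with 10 ng, 4.03 with 30 ng and 4.59 with 100 ng. It passed the filter only through the 30 ng and 100 ng arrays, so the filter favoured its rise of 0.93 at 100 ng. It is counted among the genes called higher, a call lost when each array was centred on its median. The highest Tag control was 2.96 and 2.97 in the controls and 3.56 on the 100 ng array.

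Different probe sets of a gene often disagreed at the higher doses. Among the 5 oxidative phosphorylation genes with more than 1 tested probe set (ATPsynbeta, ATPsyngamma, COX7B, ND-ACP and ND-B17), 1 probe set was called lower at 100 ng and another was not in all 5, as in 218 of 416 genes (52.4%) of the whole array. Probe sets were called in opposite directions in 1 of the 5 and in 129 of the 416 (31.0%). Changes of a gene's probe sets spanned a median of 4.98 for the 5 genes and 2.16 for the 416. The second probe set of ATPsynbeta read 14.97 and 15.03 in the controls, 14.94 and 14.75 with 10 ng, 10.66 with 30 ng and 6.94 with 100 ng. It fell by 8.06 (SE 0.16, adjusted p = 1.89e-09), while the representative one read 13.34 and 13.43 in the controls, 13.40 and 13.10 with 10 ng, 13.69 with 30 ng and 13.95 with 100 ng. At 10 ng the 2 probe sets stayed near their controls, and at 30 and 100 ng they parted.

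The probe sets of ATPsyngamma and ND-B17 also parted at 30 and 100 ng, but for these genes the representative one was not called. The second probe set of ATPsyngamma read 14.15 and 14.26 in the controls, 14.15 and 13.92 with 10 ng, 13.56 with 30 ng and 9.49 with 100 ng, a change of -4.72 (adjusted p = 1.92e-08). The representative probe set of ND-B17, an accessory subunit of complex I, stayed between 11.62 and 11.66 on all 6 arrays. Its second one read 11.07 and 11.13 in the controls, 10.90 and 10.95 with 10 ng, 8.35 with 30 ng and 5.60 with 100 ng, a change of -5.50 (adjusted p = 1.36e-08). For COX7B the second probe set fell by 1.07 (adjusted p = 2.26e-04). ND-ACP had 3 tested probe sets, whose changes were -1.15, -1.13 and 0.13. Taking the highest mean over all 6 arrays favours a probe set that did not fall, and choosing on the controls alone changed the probe set of 1 gene, ATPsynbeta, and so gave 9 members higher and 35 lower at 100 ng. The transcript positions of these probe sets were not given, so the part of 5' signal in their disagreement was not tested.

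**Figure D4:**
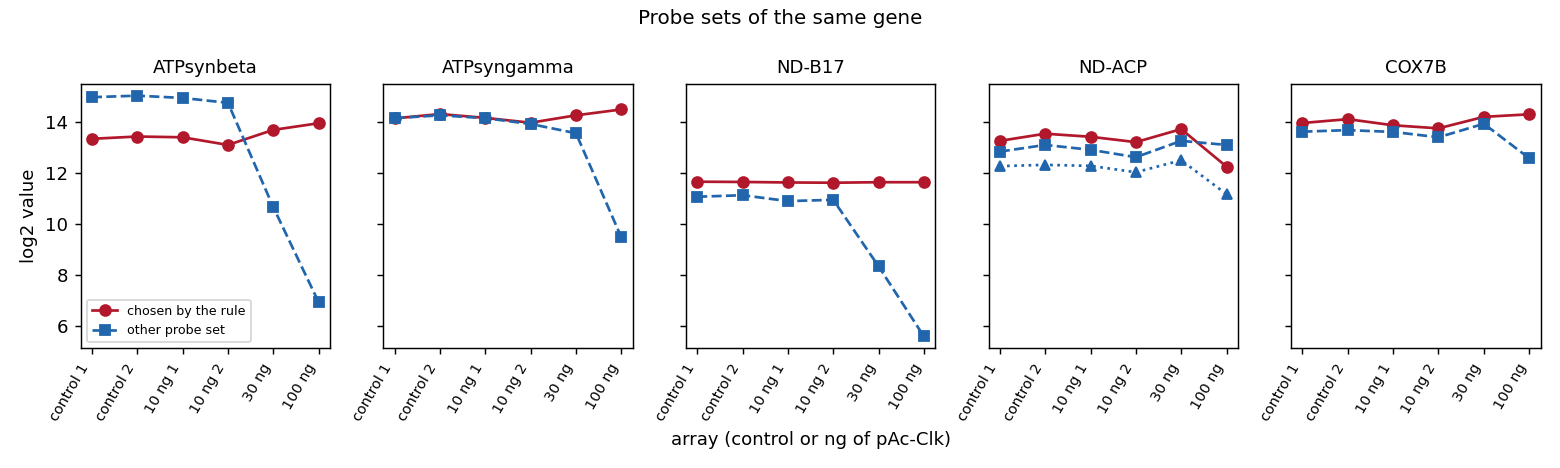
Log2 value of each tested probe set of ATPsynbeta, ATPsyngamma, ND-B17, ND-ACP and COX7B on each of the 6 arrays, with the representative probe set marked. Within each gene the probe sets run level over the control and 10 ng arrays. On the 100 ng array the second probe sets of ATPsynbeta, ATPsyngamma and ND-B17 are at 6.94, 9.49 and 5.60.

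The kind of probe set also went with the calls. Affymetrix marks probe sets that match several transcripts with the suffix a_at (of 1 gene) or s_at (possibly of several genes), and those with s_at are uncertain as a measure of 1 gene. Of the 18 members represented by either kind, 15 were lower at 100 ng (83.3%), and of the 38 represented by a plain probe set 19 were (50%). Over all genes the corresponding shares were 30.1% and 37.2%. The 2 kinds of member also differed in brightness. All tested members with a control mean under 10 had a plain probe set, and each of them rose. They were ND-B12, Sdhaf3, UQCR-11, ATPsynbetaL and ATPsynepsilonL. The part of brightness in the difference between the kinds was not tested. The 10 s_at members included ND-19, ND-20, ATPsynD and ATPsynF.

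Other genes of the respiratory system were read from lists drawn from their known roles. At 10 ng none of the tested genes in these lists was called. Their counts at 100 ng stand beside 35.4% lower and 34.9% higher among all genes, with a median of 0.05. Of the 4 tested subunits named outside the prefixes, 2 rose and 1 fell at 100 ng. blw, the alpha subunit of ATP synthase, fell by 1.14 (adjusted p = 1.60e-04), while sun, the epsilon subunit, rose by 1.65 (adjusted p = 4.38e-04). Of 11 tested assembly factors that were not members, 8 fell (72.7%) and 1 rose (9.09%), with a median of -1.92. Egm changed by -3.21 (adjusted p = 3.23e-07) and Scox, a copper chaperone of complex IV, by -1.92 (adjusted p = 4.05e-06). Of 13 tested carriers and ubiquinone synthesis genes, 6 fell (46.2%) and 2 rose (15.4%), with a median of -0.11. Coq6 and Coq8, which act in ubiquinone synthesis, changed by -3.56 (adjusted p = 6.91e-07) and -4.72 (adjusted p = 7.71e-07).

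Upstream of the chain, 6 of 12 tested genes of the tricarboxylic acid cycle and pyruvate dehydrogenase fell (50%) and 4 rose (33.3%), with a median of -0.13, where 35.4% of all genes fell and 34.9% rose. Idh3g, a regulatory subunit of NAD-dependent isocitrate dehydrogenase, changed by -3.15 (adjusted p = 3.78e-07) and Idh, the NADP-dependent enzyme, by -2.67 (adjusted p = 4.11e-07). Of 12 tested genes for mitochondrial DNA maintenance and transcription, 3 fell (25%) and 4 rose (33.3%), shares near or under those of all genes, with a median of 0.17. TFAM, which packages mitochondrial DNA, fell by 2.72 (adjusted p = 6.94e-07), and Lon, a protease of the mitochondrial matrix, rose by 2.94 (adjusted p = 9.92e-06). None of the 13 protein genes of the mitochondrial genome had a probe set of its own here, so the nuclear and mitochondrial subunits could not be set side by side.

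**Figure D5:**
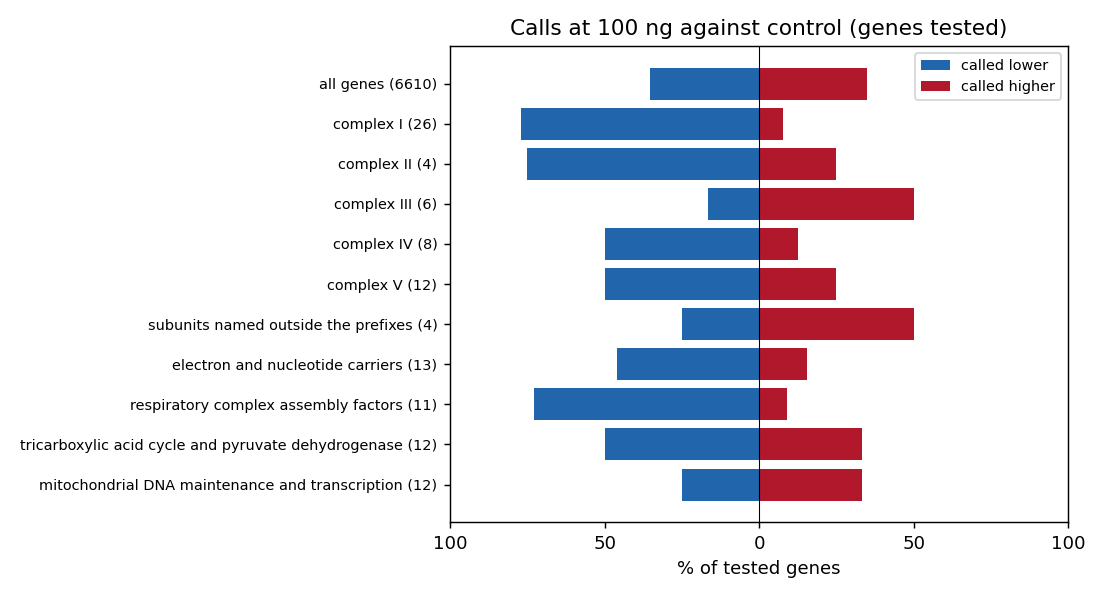
Bars give the percentage of tested genes called higher (right of 0) or lower (left of 0) at 100 ng against control. They are drawn for all genes, each complex and the lists of related genes, with the number of genes tested in brackets. All genes had 34.9% higher and 35.4% lower.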

How the data were processed

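Total RNA from transfected S2 cells was hybridised to 6 Affymetrix arrays, 1 colour each. The authors deposited linear intensities, made with GCRMA per the submitters' processing notes, version not given. Read as deposited, their log2 reaches 22.86 and 8701 of 113712 values exceed the 16-bit range of a scanner; their natural log runs from 1.69 to 15.85, with 0 above it. The natural log was therefore read as the log2 value of GCRMA, an inference; taken at face value each change is 1.44 times larger.

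Probe sets with 1 gene symbol (13647 of 18952) were used and 13544 symbols were updated through Entrez IDs; 402 with several symbols and 4720 with none were left out, as were 183 control probe sets. limma 3.58.1 (R 4.3.3) fitted 1 coefficient per group over 6 arrays, with a trended empirical Bayes variance (2 residual and 7.605 prior degrees of freedom) and Benjamini-Hochberg adjustment over 8446 probe sets of 4 or more on at least 2 arrays; an adjusted p under 0.05 was called. The fit was tested on simulated data. The few arrays limit the precision. Members, lists and tests were chosen with earlier results of these data known. Named genes were, per complex, the 2 with the highest control mean, the 3 largest falls and the 2 largest rises at 100 ng, and per list the 2 with the smallest p; core subunits, genes called at 30 ng, genes with several probe sets, the rotor ring gene ATPsynC, ND-B8 and the genes apart from both controls at 10 ng were named besides, after their values were seen. Alternatives covered scaling, filter, log base, variance, replicate number and omitted arrays.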

Additional observations from a re-analysis of the deposited data

How the results depend on the processing

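At 10 ng, no member was called under any alternative run. At 30 ng, the main count of 2 higher became 12 after quantile normalization, 0 with no filter, 0 with the values at face value and 1 to 2 when 1 replicate was left out. The main count of 13 lower became 6 with no filter, 7 at face value and 8 to 15 when 1 replicate was left out. At 100 ng, the main count of 10 higher became 16 with no filter, 19 after quantile normalization, 5 with each array centred on its median and 6 to 12 when 1 replicate was left out. For 100 ng against 30 ng, the main count of 3 higher became 6, 15 and 0 under the same 3 settings. The counts of genes lower at 100 ng stayed within 1.5 times the main count under the alternatives run, and the causes of these shifts were not tested.

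With the probe set chosen on the controls (added after seeing the data), ATPsynbeta turned to -4.34 at 30 ng, -8.06 at 100 ng and -3.72 between the doses, since the other probe set was read, and Pdk, 0.96 at 100 ng, turned to -0.090. Mpcp1, -0.01 and not called at 100 ng, was 0.71 after quantile normalization. With the replicate number as a block, 2 members were higher and 9 lower at 30 ng, 7 higher and 34 lower at 100 ng, 3 higher and 33 lower between the doses, and 0 either way at 10 ng. Deviations of same-numbered arrays correlated at 0.334 over the tested probe sets, and with 2 pairs the arrays share only a number. The 30 ng and 100 ng groups have 1 array each, so their spread is assumed to be that of the other groups.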
